A study of Rattus norvegicus with 10 samples.

Results

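Aminoacyl-tRNA synthetases are the enzymes that join each amino acid to its tRNA, and they were followed here as transcripts of the rat hippocampus. The members were named by symbol: 36 genes, 20 for cytosolic enzymes and 16 for mitochondrial ones. Of these, 34 matched a row among the 17168 of the deposited count table, all 20 cytosolic genes and 14 mitochondrial ones, and all 34 passed the filter on low counts. Iars2 and Mars2 were not matched to a row and were not analysed here.

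The samples were left hippocampi of 10 male TgF-344AD rats. These animals carry human transgenes for mutant amyloid precursor protein and presenilin under a prion promoter and develop Alzheimer-like plaques and tau pathology. The 5 ibudilast rats were fed chow that held ibudilast, which blocks phosphodiesterases of cyclic nucleotides, starting at 5 months of age and lasting 6 months. The 5 untreated rats carried the same transgenes and ate plain chow, and all tissue was taken at 11 months after perfusion. The ibudilast samples alone were kept in RNAlater-ICE, a tissue transition solution, so treatment and storage cannot be told apart in any value below. Libraries held 14806807 to 17114238 counts in ibudilast rats and 15984438 to 18533520 counts in untreated rats.

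A synthetase activates its amino acid with ATP and passes it to the matching tRNA, which then enters the ribosome. Cytosol and mitochondria use separate sets, both encoded in the nucleus, although in mammals the Gars and Kars genes supply both compartments. Enzymes fall into class I and class II, which differ in the fold of the catalytic domain. In mammals a group of the cytosolic enzymes is held in a multi-synthetase complex by scaffold proteins. When amino acids run short, uncharged tRNA activates the kinase GCN2, and the transcription factor ATF4 then raises many genes of amino acid supply, cytosolic synthetases among them. Inherited variants in several synthetase genes cause neuropathies and leukoencephalopathies in humans.

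ATF4 and its partners bind a composite element whose core is TGATGNAA, and rat promoters were searched for these letters on both strands in RefSeq windows of the GRCr8 build, from 250 bases before each gene's start to 50 after it. Of the 34 members, 31 had such a window. The letters were found in 7 of 17 cytosolic members and 0 of 14 mitochondrial members, against 3.82% of all 27457 promoters. Of the other motifs searched on both strands, the ETS factor motif CCGGAAGT was in 7 cytosolic and 3 mitochondrial members (4.01% of all promoters), the NRF1 motif (GCGCA, any base, then GCGC) in 3 and 2 (4.71%) and CCAAT in 10 and 5 (37.7%). A match is a description and not a binding site. The 8 matches to the ATF4 core are printed because they fell in cytosolic members alone, each with up to 16 bases on either side, on the strand that reads the core 5′ to 3′, with the core in capitals.
Aars, chr19:55908354-55908393, minus strand: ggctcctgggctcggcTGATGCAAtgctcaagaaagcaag
Aars, chr19:55908475-55908514, minus strand: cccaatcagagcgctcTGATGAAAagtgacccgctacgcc
Cars, chr1:208225329-208225368, plus strand: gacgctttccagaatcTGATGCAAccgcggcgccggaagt
Iars, chr17:15193653-15193692, plus strand: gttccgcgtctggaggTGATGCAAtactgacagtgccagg
Mars, chr7:65023747-65023786, plus strand: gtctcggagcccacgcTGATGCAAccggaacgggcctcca
Nars, chr18:60275773-60275812, minus strand: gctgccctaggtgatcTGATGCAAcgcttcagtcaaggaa
Tars, chr2:62114806-62114845, plus strand: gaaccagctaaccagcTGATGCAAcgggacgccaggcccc
Yars, chr5:146820185-146820212, plus strand: gagctacgagctcagcTGATGCAAcctg

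The members differed between ibudilast and untreated rats in both directions. By edgeR's quasi-likelihood test, 18 of 34 members (52.9%) had an adjusted p under 0.05, close to the 47.1% of all 12355 genes tested. Of mitochondrial members, 6 of 14 (42.9%) rose and 1 fell. Among all genes 24.3% rose and 22.8% fell. Of cytosolic members, 4 of 20 (20%) rose and 7 (35.0%) fell. The median log2 fold change was 0.21 for mitochondrial members, −0.09 for cytosolic members and 0.02 for all genes. Under 21 other settings the mitochondrial median ran from 0.16 to 0.28, the cytosolic median from −0.16 to −0.02 and that of all genes from −0.02 to 0.09. The changes were small: the median absolute log2 fold change was 0.21 over the 34 members and 0.36 over all genes. In 11 of 34 members the groups did not overlap, 7 with ibudilast rats above and 4 with them below, against 33.4% of all genes. The 4 libraries whose marker sums stood apart (ibudilast replicates 1 and 4, untreated replicates 2 and 3) were also left out together. Without them, 6 cytosolic members rose and 6 fell, and 5 mitochondrial members rose and 0 fell. Over the 12325 genes tested there, 3483 rose and 3374 fell, against 3004 and 2813 of 12355 with all rats.

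**Figure D1:**
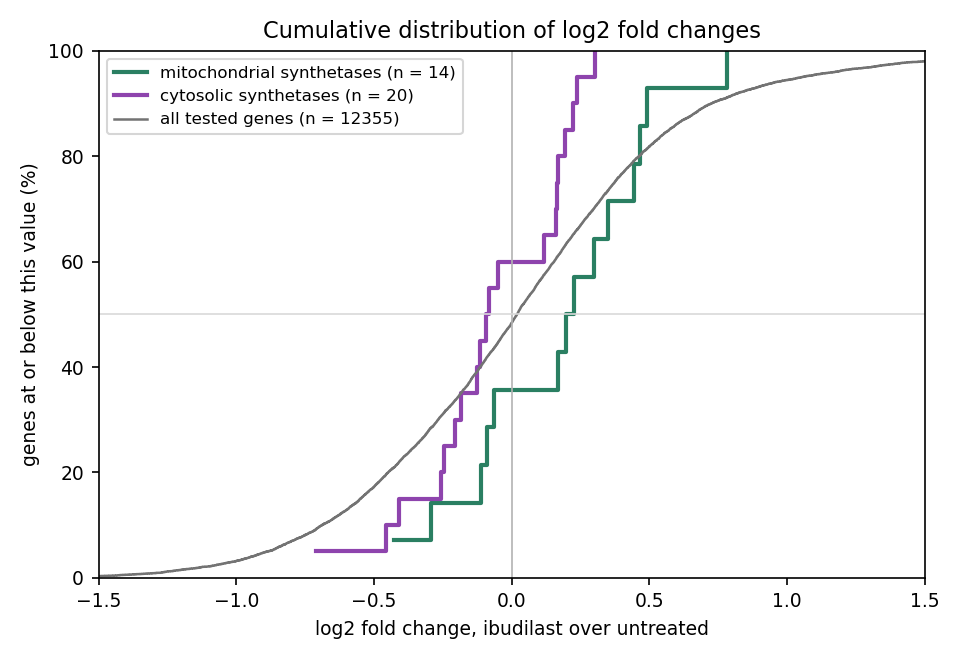
Cumulative share of genes (vertical axis, percent) at or below each log2 fold change of ibudilast over untreated rats (horizontal axis), for 14 mitochondrial synthetases, 20 cytosolic synthetases and 12355 tested genes. The mitochondrial curve lies mostly to the right of the cytosolic one, with medians of 0.21 and −0.09, and both curves are narrower than that of all genes.

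Summed levels of markers of some cell types also differed between the groups. The summed level of 15 oligodendrocyte markers was 16700 to 19800 CPM (counts scaled to library size) in ibudilast rats and 8150 to 15900 CPM in untreated rats. Of these 15 markers, 8 were higher and 0 lower, against 24.3% of all genes that were higher and 22.8% that were lower. The marker counts that follow are to be read against the same shares. Excitatory neuron markers, all 11 detected, summed to 1560 to 6120 CPM in ibudilast rats and 5170 to 7930 CPM in untreated rats, with 3 of 11 lower, against 22.8% of all genes, and 0 higher. Microglial markers summed to 526 to 633 CPM in ibudilast rats and 646 to 1210 CPM in untreated rats, with 6 of 11 lower. Endothelial markers summed to 188 to 430 CPM in ibudilast rats and 382 to 715 CPM in untreated rats, with 5 of 9 lower. The oligodendrocyte and microglial sums did not overlap between the groups, while the sums of every other list did. Astrocyte markers, 4 of 10 lower, summed to 7650 to 9300 CPM in ibudilast rats and 7100 to 11200 CPM in untreated rats. Interneuron markers, 1 of 10 higher and 3 lower, summed to 586 to 782 CPM in ibudilast rats and 579 to 887 CPM in untreated rats. Oligodendrocyte precursor markers, 2 of 6 lower, summed to 365 to 507 CPM in ibudilast rats and 433 to 633 CPM in untreated rats. No marker of these lists was at 0. Choroid plexus markers reached 7320 CPM in ibudilast replicate 1 and 8030 CPM in untreated replicate 2, against 364 CPM at most in the other ibudilast rats and 288 CPM in the other untreated rats. Untreated replicate 3 had the highest microglial and endothelial sums, and ibudilast replicate 4 the lowest excitatory neuron sum. In bulk tissue, fewer cells of a type and less RNA per cell cannot be told apart, and the part of composition in the results below was not tested.

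Mitochondrial valyl-tRNA synthetase, Vars2, had the largest rise of the 34 members. It was at 45.0, 44.5, 44.6, 46.7 and 45.8 CPM in ibudilast replicates 1 to 5, against 26.4, 23.7, 33.7, 23.4 and 24.7 CPM in untreated replicates 1 to 5. The ibudilast rats lay close together and above every untreated rat, of which replicate 3 was highest. The log2 fold change was 0.78 ± 0.10 (SE, adjusted p = 0.000147), a 1.72-fold level. The annotation places Gtf2h4, a subunit of a transcription factor, within 1 kb of Vars2.

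Tars2, the mitochondrial threonyl enzyme, was at 63.6, 63.3, 67.8, 63.9 and 65.8 CPM in ibudilast rats and at 49.8, 41.8, 54.3, 41.1 and 43.9 CPM in untreated rats. The groups did not overlap, and untreated replicate 3 was again the highest of its group. The log2 fold change was 0.49 ± 0.08 (adjusted p = 0.000846). Cars2, the mitochondrial cysteinyl enzyme, was at 20.5, 21.1, 23.7, 25.3 and 23.1 CPM in ibudilast rats and at 17.6, 16.1, 17.9, 14.9 and 16.03 CPM in untreated rats. These groups were also separate, with a log2 fold change of 0.47 ± 0.08 (adjusted p = 0.00124).

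Sars2, which charges mitochondrial serine tRNAs, had 14.9, 19.3, 16.7, 21.0 and 16.9 CPM in ibudilast rats and 13.0, 13.0, 14.4, 11.2 and 13.8 CPM in untreated rats. The gap was narrow, between ibudilast replicate 1 and untreated replicate 3, and the log2 fold change was 0.44 ± 0.11 (adjusted p = 0.00691). Vars2, Tars2, Cars2 and Sars2 kept their calls in all 21 other settings. Aars2, the mitochondrial alanyl enzyme, averaged 19.4 ± 2.05 CPM in ibudilast rats and 15.7 ± 0.919 CPM in untreated rats (SD, n = 5 each), with no overlap. Its log2 fold change was 0.30 ± 0.09 (adjusted p = 0.0166), and its call was lost without untreated replicate 4 (adjusted p = 0.0524).

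Rars2 charges mitochondrial arginine tRNA, and its loss causes a form of pontocerebellar hypoplasia in humans. It had 10.5, 8.39, 10.2, 9.27 and 8.22 CPM in ibudilast rats and 6.61, 7.48, 6.99, 8.39 and 7.05 CPM in untreated rats. Untreated replicate 4 lay within the ibudilast range. The log2 fold change was 0.35 ± 0.11 (adjusted p = 0.0255). The call was lost without any 1 of untreated replicates 1, 2, 3 and 5 or ibudilast replicates 1, 3 and 4, where adjusted p was 0.0504 to 0.0641. The annotation overlaps Rars2 with Orc3 and Slc35a1, and Sars2 with Ccer2. Other loci are also annotated over Aars, Cars, Dars, Hars, Iars, Mars, Sars, Yars, Aars2, Cars2 and Nars2. The labels name a stranded kit, but whether counting used strand was not given in the sources used here, so reads of overlapping genes may be mixed.

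Nars2, for mitochondrial asparagine tRNA, was the mitochondrial member that fell. It was at 5.07, 4.88, 3.42, 3.78 and 3.42 CPM in ibudilast rats and 6.01, 5.84, 5.43, 5.25 and 5.11 CPM in untreated rats. All ibudilast rats lay below all untreated rats, with a narrow gap between ibudilast replicate 1 and untreated replicate 5, and the log2 fold change was −0.43 ± 0.15 (adjusted p = 0.0411). The call was lost without any 1 of untreated replicates 1, 2, 4 and 5 or ibudilast replicates 3, 4 and 5, where adjusted p was 0.0566 to 0.0978.

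The other 7 mitochondrial members did not pass. Hars2, Wars2 and Pars2 had log2 fold changes of 0.17, 0.22 and 0.20 (adjusted p = 0.0769, 0.122 and 0.201). Yars2, Fars2, Lars2 and Ears2 were at −0.07, −0.09, −0.11 and −0.29 (adjusted p = 0.282 to 0.669). Ears2, whose glutamate enzyme also starts the route to mitochondrial glutaminyl-tRNA, had the fewest reads of any member, with 33 counts in its lowest library, and its SE of 0.21 was the widest.

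Summed over the 14 mitochondrial members, ibudilast rats had 279.9 to 287.2 CPM and untreated rats 216.2 to 242.2 CPM. The same sum over 20 cytosolic members was 1596 to 1878 CPM in ibudilast rats and 1674 to 1968 CPM in untreated rats. The cytosolic ranges overlapped over most of their width, and the mitochondrial ranges did not meet. Abundant members weigh most in such a sum: Tars2 averaged 64.9 and 46.2 CPM and Vars2 45.3 and 26.4 CPM in ibudilast and untreated rats. The mean log2 CPM, where each mitochondrial member weighs alike, was 3.87 to 3.92 in ibudilast rats and 3.69 to 3.81 in untreated rats. Of the 14 members, 5 had a negative log2 fold change.

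**Figure D2:**
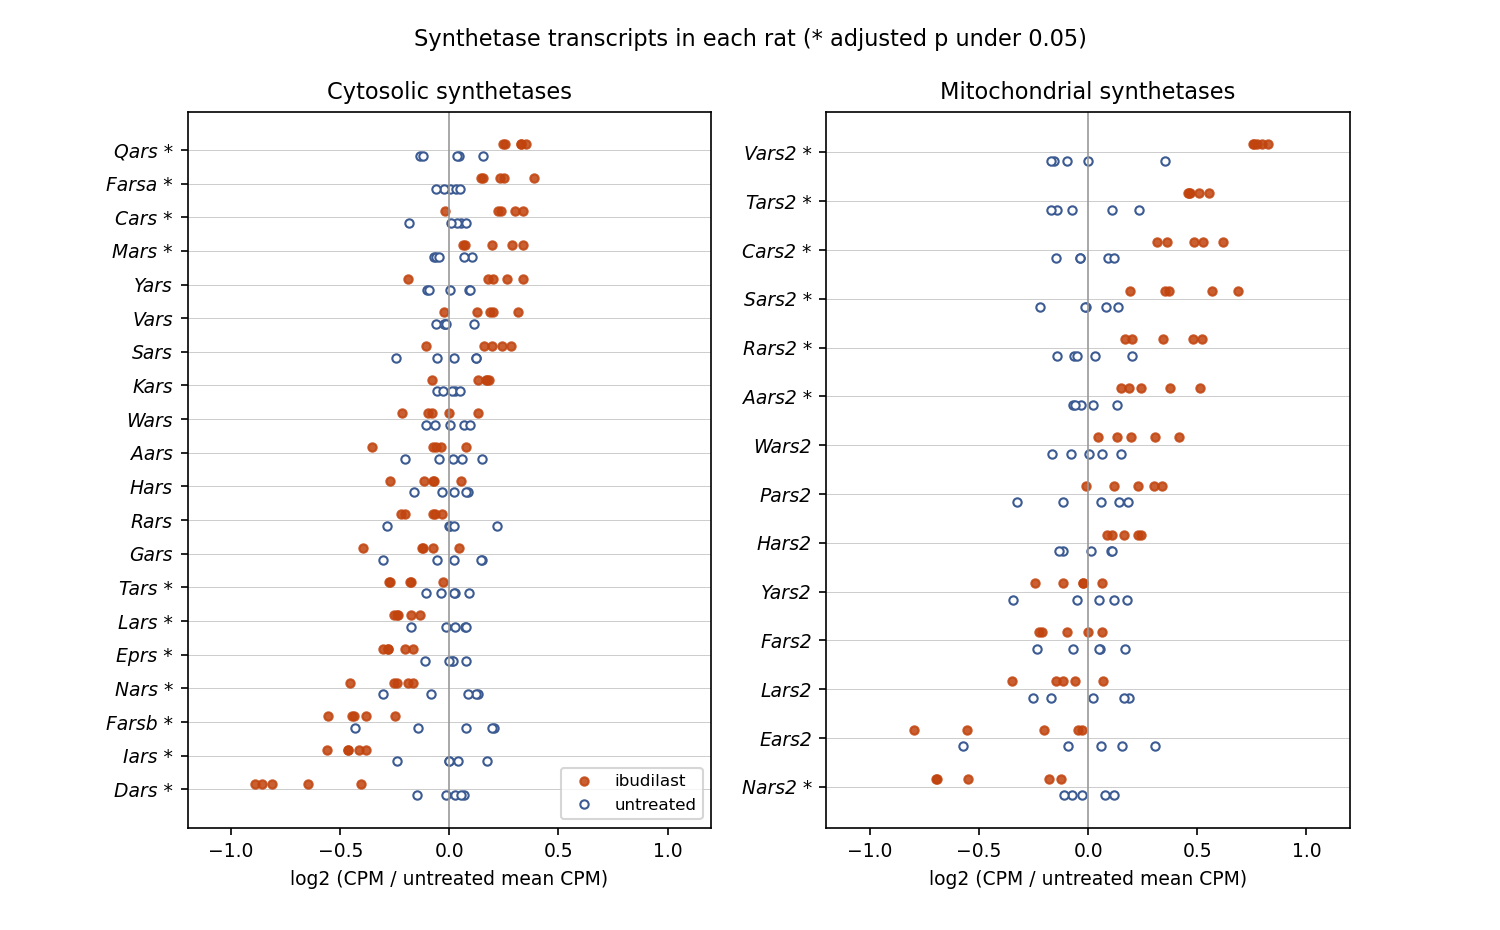
Each point is a rat: log2 of its CPM over the untreated mean (horizontal axis) for every tested synthetase (rows in 2 panels, ordered by log2 fold change), ibudilast rats filled and untreated rats open. Vars2 and Tars2 stand clear to the right and Dars to the left, while most other members overlap between the groups.

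Among cytosolic members, Dars fell the most. Its product charges aspartate tRNA within the multi-synthetase complex. Levels were 31.3, 23.6, 22.9, 22.4 and 26.5 CPM in ibudilast rats, against 42.3, 43.4, 37.5, 43.1 and 41.0 CPM in untreated rats. The highest ibudilast rat, replicate 1, was still below the lowest untreated rat, replicate 3. The log2 fold change was −0.71 ± 0.10 (adjusted p = 0.000255), a 0.611-fold level. The GRCr8 annotation overlaps Dars with a ribosomal protein pseudogene, Rps26-ps11.

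Iars, the isoleucyl enzyme of the same complex, was at 51.4, 53.3, 51.4, 54.5 and 48.1 CPM in ibudilast rats and 79.9, 70.9, 60.1, 72.8 and 70.9 CPM in untreated rats. The groups were separate, with untreated replicate 3 nearest to the ibudilast range, and the log2 fold change was −0.46 ± 0.08 (adjusted p = 0.000877). Eprs encodes the fused glutamyl and prolyl enzyme of the complex. It averaged 105 ± 4.24 CPM in ibudilast rats and 125 ± 5.80 CPM in untreated rats, also without overlap, and its log2 fold change was −0.25 ± 0.06 (adjusted p = 0.00504). With library size alone as the scale its adjusted p was 0.0875.

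The complex did not move as a unit. Of its 8 enzymes, 4 fell (Dars, Iars, Eprs and Lars), 2 rose (Qars and Mars), and Kars and Rars did not pass, against 22.8% of all genes that fell and 24.3% that rose. Qars, the glutaminyl enzyme, was at 90.7, 86.2, 85.7, 90.7 and 92.1 CPM in ibudilast rats and 65.7, 74.4, 80.4, 74.1 and 66.5 CPM in untreated rats. Every ibudilast rat was above every untreated rat (log2 fold change 0.30 ± 0.07, adjusted p = 0.00410). Lars, the leucyl enzyme and also a leucine sensor of the mTORC1 pathway, fell by 0.21 ± 0.06 (adjusted p = 0.0196), a call lost without untreated replicate 5 (adjusted p = 0.0522). Mars, the methionyl enzyme, was 0.19 ± 0.07 higher (adjusted p = 0.0470). That call was lost without any 1 of untreated replicates 2 to 5 or ibudilast replicates 2, 3 and 5, where adjusted p was 0.0624 to 0.117. The GRCr8 annotation overlaps Mars with Ddit3, which encodes the stress factor CHOP and itself rose by 0.47 ± 0.09 (adjusted p = 0.00180). Reads at Mars may be shared with Ddit3, but this was not tested.

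The 3 scaffold genes of the complex were also unequal. Eef1e1, which encodes the scaffold AIMP3, was at 18.6, 19.4, 25.4, 17.8 and 23.8 CPM in ibudilast rats and 32.6, 25.5, 25.8, 33.6 and 31.1 CPM in untreated rats. It fell by 0.50 ± 0.13 (adjusted p = 0.00776), with ibudilast replicate 3 just below untreated replicate 2. Aimp1 was at 0.18 ± 0.08 (adjusted p = 0.0792) and Aimp2 at −0.02 ± 0.13 (adjusted p = 0.919).

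Cytosolic phenylalanyl-tRNA synthetase is built from alpha and beta subunits of the genes Farsa and Farsb, and these went opposite ways. Farsa was at 32.4, 34.4, 32.6, 38.3 and 34.8 CPM in ibudilast rats and 29.3, 28.8, 30.0, 28.1 and 30.3 CPM in untreated rats. Farsb was at 33.9, 33.7, 38.6, 31.2 and 35.3 CPM in ibudilast rats and 52.9, 48.3, 34.0, 41.6 and 52.6 CPM in untreated rats. Farsa did not overlap between the groups, while untreated replicate 3 put Farsb inside the ibudilast range. Farsa rose by 0.24 ± 0.06 (adjusted p = 0.0112) and Farsb fell by 0.41 ± 0.12 (adjusted p = 0.0166). The Farsa call was lost without untreated replicate 2 or 4 (adjusted p = 0.0509 and 0.0544).

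**Figure D3:**
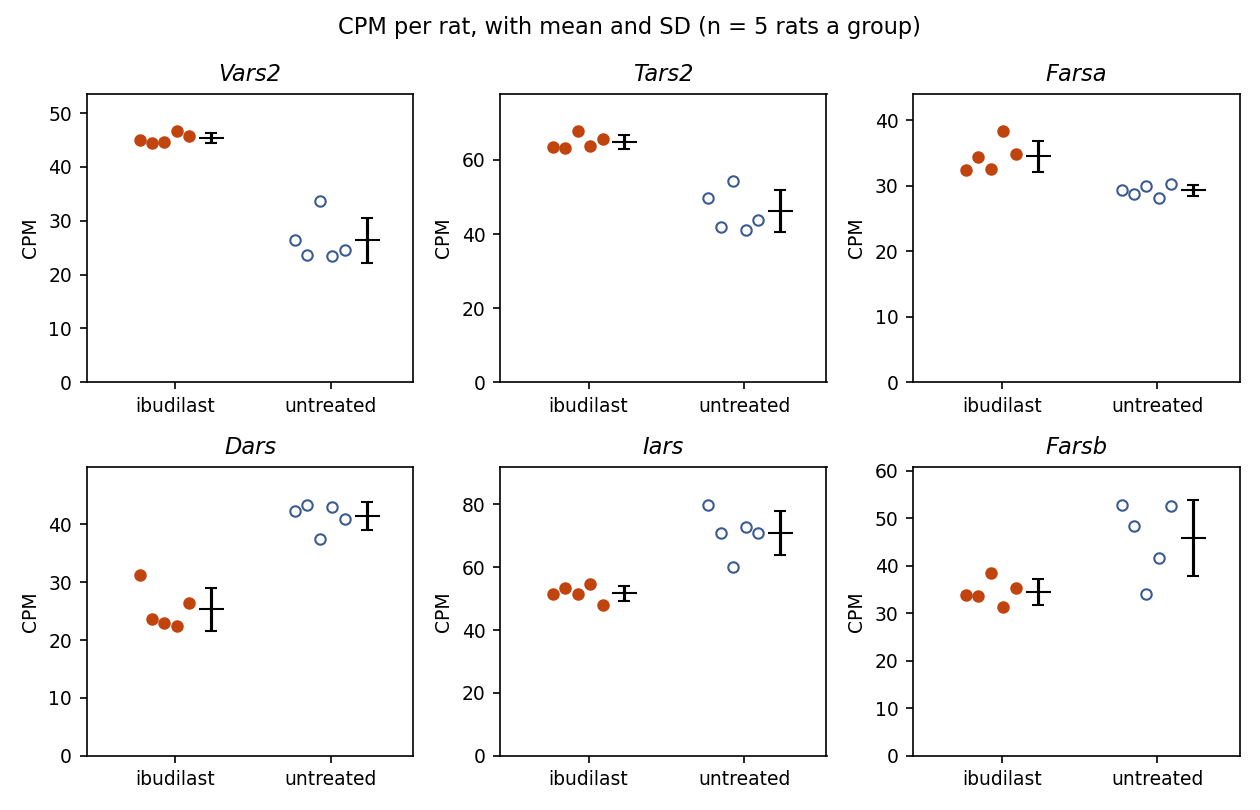
CPM in each rat (vertical axis from 0; points are rats, the bar is mean ± SD, n = 5 a group) for Vars2, Tars2 and Farsa, which rose, and Dars, Iars and Farsb, which fell with ibudilast. Farsb alone of the 6 overlaps between groups, through untreated replicate 3 at 34.0 CPM.

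The remaining cytosolic calls were near the threshold. Cars, the cysteinyl enzyme, was 0.22 ± 0.08 higher (adjusted p = 0.0432) and lost its call without any 1 of the rats except ibudilast replicate 1, with adjusted p of 0.0531 to 0.137. Nars, the asparaginyl enzyme, was at −0.26 ± 0.10 (adjusted p = 0.0485), lost without untreated replicate 1, 4 or 5 or ibudilast replicate 1, 2, 3 or 5 (adjusted p = 0.0600 to 0.110). Tars, the threonyl enzyme, was at −0.18 ± 0.07 (adjusted p = 0.0434), lost without untreated replicate 1 or 5 or ibudilast replicate 1, 2 or 3 (adjusted p = 0.0698 to 0.101). The count of cytosolic members that rose, 4 with all rats, was 7 without ibudilast replicate 1, where Kars, Vars and Yars were added. It was 1 without untreated replicate 2 or 4, where Cars, Mars and Farsa were lost, and 2 without untreated replicate 3 or 5 or ibudilast replicate 2, 3 or 5, where Cars and Mars were lost. The count that fell, 7 with all rats, was 4 without untreated replicate 5, where Lars, Nars and Tars were lost.

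The other 9 cytosolic members did not pass, some of them genes of inherited disease. Disease links were not compared between members with and without a call. Gars and Aars, both genes of inherited Charcot-Marie-Tooth neuropathy, were at −0.13 ± 0.10 (adjusted p = 0.343) and −0.08 ± 0.09 (adjusted p = 0.496). Yars, linked to the same disease, was at 0.17 ± 0.10 (adjusted p = 0.175), with 86.8 CPM in ibudilast replicate 1 and 111.9 to 125 CPM in the other ibudilast rats, against 92.2 to 105.6 CPM in untreated rats. Without that rat Yars was at 0.25 (adjusted p = 0.0166). Kars, which encodes the lysyl enzyme of both compartments, was at 0.12 ± 0.06 (adjusted p = 0.154), and at 0.16 (adjusted p = 0.0297) without the same rat. Vars, at 0.16 ± 0.07 (adjusted p = 0.0792), passed without it too (0.21, adjusted p = 0.0238). Rars, at −0.12 ± 0.09 (adjusted p = 0.313), passed without untreated replicate 3 (−0.20, adjusted p = 0.0345). Sars, Hars and Wars were at 0.16, −0.09 and −0.05 (adjusted p = 0.193 to 0.623).

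Some rats were at the edge of their group for many members. Ibudilast replicate 1 had the lowest level of its group for 17 of 34 members, and untreated replicate 3 likewise for 17 of 34. Ibudilast replicate 3 was the highest of its group for 12 members and untreated replicate 1 for 14. By structural class, 3 of 9 cytosolic class I enzymes rose and 2 fell, and 1 of 10 of class II rose and 4 fell, with Eprs belonging to both. Of mitochondrial members, 3 of 7 in class I rose and 0 fell, and 3 of 7 in class II rose and 1 fell, against 24.3% of all genes that rose and 22.8% that fell.

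For 11 amino acids both a cytosolic and a mitochondrial gene were measured under matching symbols, which sets enzymes of the same chemistry side by side. The mitochondrial log2 fold change was the more positive in 9 of the 11, and the median difference was 0.27. Taken rat by rat, the ratio of mitochondrial to cytosolic level separated the groups in 3 pairs (threonine, valine and arginine), with ibudilast rats above. It overlapped between the groups in the other pairs, and no such share was taken over other pairs of genes. The widest gap was for threonine, where Tars2 rose by 0.49 and Tars fell by 0.18, the only pair called in opposite directions. For valine Vars2 was at 0.78 and Vars at 0.16, and for arginine Rars2 was at 0.35 and Rars at −0.12. Asparagine and tyrosine ran the other way, with Nars2 at −0.43 and Nars at −0.26, and Yars2 at −0.07 and Yars at 0.17. Cars2 and Cars both rose, and Nars2 and Nars both fell. The differences between partners were not tested.

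**Figure D4:**
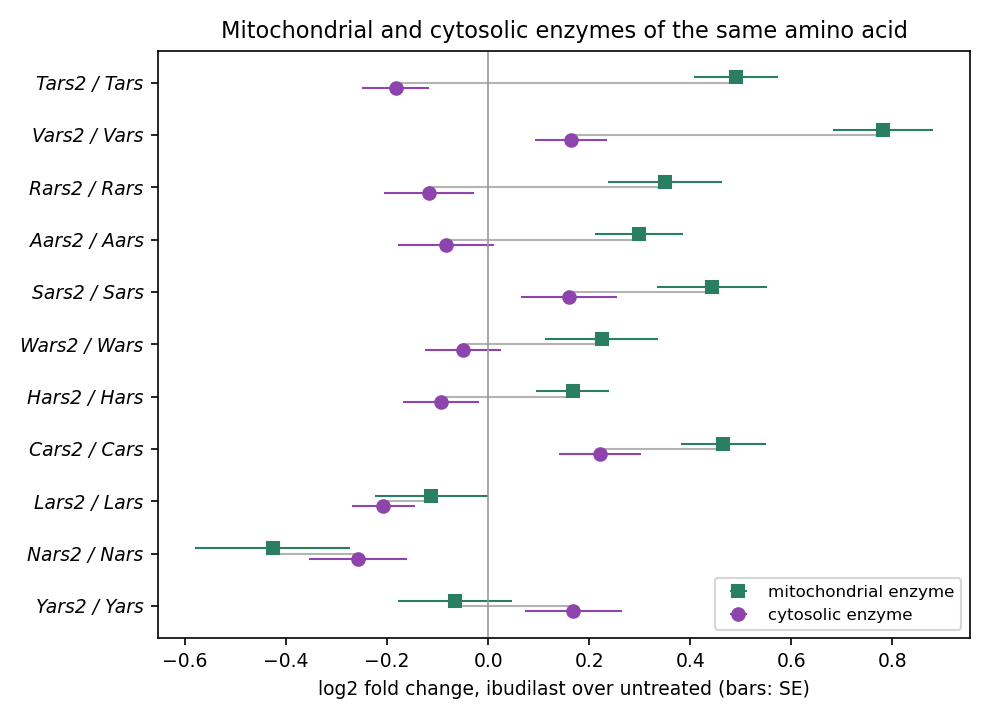
Log2 fold change of ibudilast over untreated rats (horizontal axis, bars are SE) for the mitochondrial (squares) and cytosolic (circles) enzyme of each of 11 amino acids, ordered by the difference between them. The square lies to the right of the circle in 9 of 11 rows, most widely for Tars2 at 0.49 and Tars at −0.18.

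Hars and Hars2, for cytosolic and mitochondrial histidine tRNA, lie head to head in the rat genome, with annotated starts 144 bases apart. Their promoter windows share 243 bases, shown because a single stretch of DNA faces one gene of each compartment. It is printed on the strand of Hars2, with 2 matches to the ETS factor motif CCGGAAGT, here on the opposite strand, in capitals.
Hars2 and Hars, chr18:28672663-28672905 (GRCr8), plus strand: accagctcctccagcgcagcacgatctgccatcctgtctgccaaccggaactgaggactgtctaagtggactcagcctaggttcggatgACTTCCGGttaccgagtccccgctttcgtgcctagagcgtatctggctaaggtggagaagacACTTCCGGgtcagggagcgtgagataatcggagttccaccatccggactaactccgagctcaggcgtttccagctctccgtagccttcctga
Hars2 was at 36.3, 36.0, 34.4, 33.0 and 32.5 CPM in ibudilast rats and 33.0, 33.1, 28.3, 30.9 and 27.9 CPM in untreated rats. Hars was at 68.6, 78.9, 86.0, 76.7 and 78.7 CPM in ibudilast rats and 87.9, 81.0, 74.0, 84.2 and 87.6 CPM in untreated rats. Both genes overlapped between the groups and neither passed, at 0.17 ± 0.07 (adjusted p = 0.0769) and −0.09 ± 0.07 (adjusted p = 0.335).

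The 7 cytosolic members with the ATF4 element printed above did not share a direction. Cars and Mars rose, Iars, Nars and Tars fell, and Aars and Yars did not pass. Their median log2 fold change was −0.08, against 0.03 for the 10 cytosolic members whose window lacked these letters, of which 2 rose and 3 fell. The shares over all genes were 24.3% higher and 22.8% lower. The calls of Cars, Mars, Nars and Tars were near the threshold (adjusted p = 0.0432 to 0.0485) and each was lost without certain single rats. Atf4 itself was at 0.09 ± 0.09 (adjusted p = 0.409).

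The list of eIF2 kinases and the integrated stress response includes the gene of GCN2, the kinase that uncharged tRNA activates. Of its 20 tested genes, 6 rose (30%, against 24.3% of all genes) and 5 fell (25%, against 22.8%), shares near those of all genes. Gcn1l1, the ribosome-bound partner of GCN2, was at 149.8, 163, 147, 153 and 147 CPM in ibudilast rats and 113, 113, 112, 111 and 111 CPM in untreated rats. The groups were well apart (log2 fold change 0.44 ± 0.05, adjusted p = 0.000111). Eif2ak4, the GCN2 gene, was at 0.12 ± 0.10 (adjusted p = 0.373). Eif2s2, a subunit of eIF2, rose by 0.36 ± 0.07 (adjusted p = 0.00139). Eif2ak2, the double-stranded RNA kinase PKR, fell by 0.39 ± 0.06 (adjusted p = 0.000699), and Cebpg, a dimer partner of ATF4, fell by 0.47 ± 0.08 (adjusted p = 0.00107).

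Of 25 tested ATF4 target genes other than synthetases, 2 rose (8%, against 24.3% of all genes) and 5 fell (20%, against 22.8%). The other 18 did not pass, so 28.0% were called, against 47.1% of all genes. The share that fell was thus near that of all genes, and the share that rose was below it. Slc7a11, the cystine and glutamate exchanger, was at 125, 96.96, 84.7, 124 and 110.4 CPM in ibudilast rats and 172, 184, 199, 219 and 178 CPM in untreated rats. The groups were separate (log2 fold change −0.81 ± 0.12, adjusted p = 0.000333). Its partner chain Slc3a2 fell by 0.41 ± 0.08 (adjusted p = 0.00134) and the cationic amino acid transporter Slc7a1 by 0.80 ± 0.13 (adjusted p = 0.000601), while the mitochondrial enzyme Pck2 rose by 0.50 ± 0.07 (adjusted p = 0.000360). Of 25 tested amino acid transporters, 9 fell (36.0%, against 22.8% of all genes) and 1 rose (4%, against 24.3%). Calls in either direction made up 40.0% of them, against 47.1% of all genes. The one that rose, Slc7a6, which exchanges cationic for neutral amino acids, was at 43.4 ± 5.36 CPM in ibudilast rats and 22.4 ± 1.86 CPM in untreated rats (0.95 ± 0.10, adjusted p = 5.12e-05). Slc36a4, of a family of proton-coupled transporters, fell by 0.77 ± 0.11 (adjusted p = 0.000250). Slc7a11, Slc3a2, Slc7a1 and Slc7a5 stand in both lists, so 4 of the 5 ATF4 targets that fell are also among the 9 transporters that fell.

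Many enzymes that mature and modify tRNA rose. Of 71 tested, 32 rose (45.1%, against 24.3% of all genes) and 5 fell (7.04%, against 22.8%), and the median log2 fold change was 0.30. Trmt1, which methylates a guanine of many tRNAs, was at 79.2, 85.5, 86.5, 87.5 and 86.1 CPM in ibudilast rats and 45.8, 45.8, 52.0, 45.4 and 49.7 CPM in untreated rats. Every ibudilast rat was far above every untreated rat (0.83 ± 0.06, adjusted p = 1.30e-05). Dus2, which makes dihydrouridine, Trit1, which isopentenylates adenine beside the anticodon, and Ctu2, which thiolates wobble uridine, rose by 0.99, 0.95 and 0.90 (adjusted p = 2.18e-05, 2.89e-05 and 5.55e-05).

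Of 12 tested genes of proofreading and of selenocysteine tRNA, 6 rose (50%, against 24.3% of all genes) and 0 fell (against 22.8%). Pstk phosphorylates the serine that Sars has placed on selenocysteine tRNA. It was at 31.1, 28.2, 34.5, 30.2 and 30.3 CPM in ibudilast rats and 10.5, 10.3, 13.6, 9.35 and 12.8 CPM in untreated rats, with no overlap (1.45 ± 0.11, adjusted p = 1.68e-05). Secisbp2, which reads the selenocysteine element of mRNAs, rose by 0.69 ± 0.11 (adjusted p = 0.000497). Aarsd1, which clears mischarged alanine tRNA, rose by 0.40 ± 0.08 (adjusted p = 0.00235), and Ankrd16, a partner of Aars in proofreading in mice, by 0.72 ± 0.12 (adjusted p = 0.00100).

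Downstream of charging, 4 of 16 tested genes of mitochondrial aminoacyl-tRNA supply and translation rose (25%, against 24.3% of all genes) and 3 fell (18.8%, against 22.8%), also near the shares of all genes. Gatc belongs to the amidotransferase that converts the product of Ears2 to glutaminyl-tRNA. It was at 88.9, 89.9, 91.0, 91.0 and 87.3 CPM in ibudilast rats and 64.3, 61.3, 68.0, 61.6 and 67.6 CPM in untreated rats, and rose by 0.47 ± 0.05 (adjusted p = 8.58e-05). Ptcd3, a mitochondrial ribosome protein, rose by 0.36 ± 0.08 (adjusted p = 0.00391). The elongation factor Gfm1 and the mRNA-binding Lrpprc each fell by 0.51 (adjusted p = 0.000389 and 0.000284). Of 7 elongation factor genes that take charged tRNA to cytosolic ribosomes or act beside them, 2 rose, Eef1d (0.30 ± 0.05, adjusted p = 0.000690) and Eef1b2 (0.33 ± 0.11, adjusted p = 0.0255), and 0 fell. The share that rose was 28.6%, against 24.3% of all genes. Eef1g was at 0.29 ± 0.11 (adjusted p = 0.0518) and Eef2k at 0.20 ± 0.13 (adjusted p = 0.228).

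**Figure D5:**
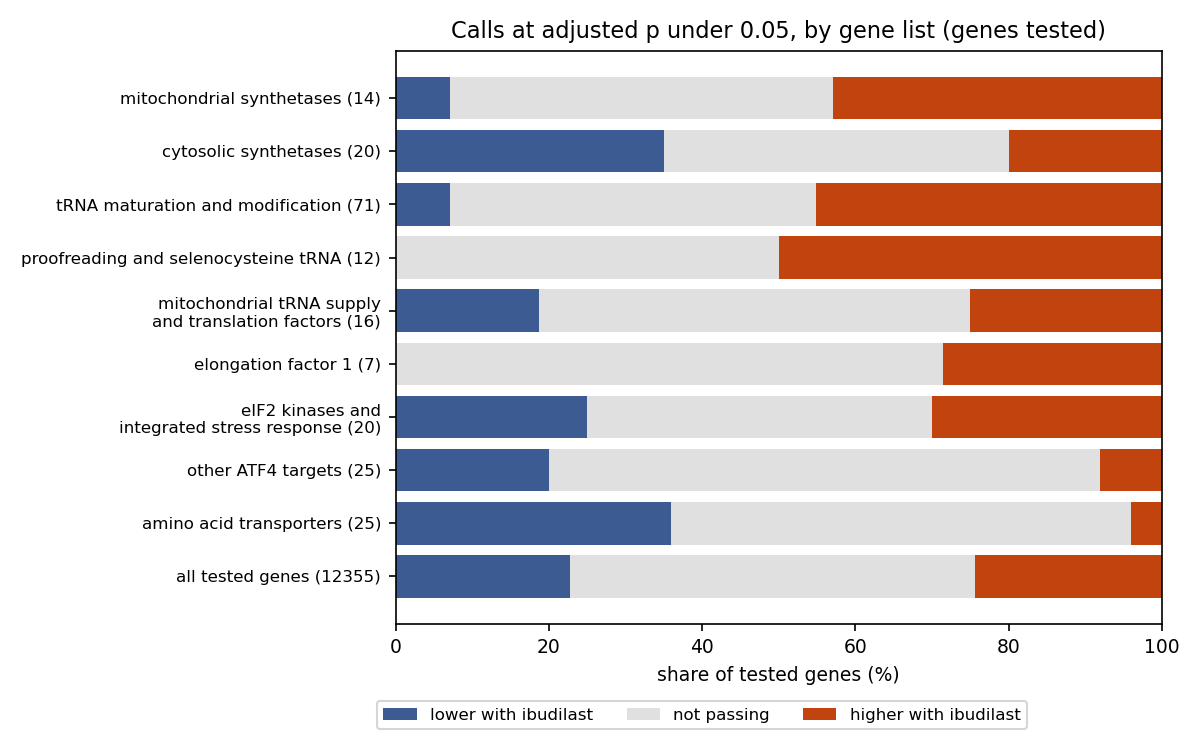
Share of tested genes (horizontal axis, percent) that were lower, did not pass or were higher with ibudilast at an adjusted p under 0.05, for each list (rows, with the number of genes tested). The largest higher shares are those of proofreading and selenocysteine tRNA (50%), tRNA maturation (45.1%) and the mitochondrial synthetases (42.9%), against 24.3% of all tested genes. The integrated stress response (30%), elongation factor (28.6%) and mitochondrial tRNA supply (25%) lists lie nearer to that share.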

How the data were processed

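Messenger RNA libraries were made with a stranded mRNA kit from column-isolated RNA, 1 library per rat, per the labels. The authors deposited expected counts per gene symbol and, apart from these, a normalized signal. Tools listed in the submitters' processing notes, with no roles, are RSEM 1.2.15, Bowtie2 2.1.0, bcl2fastq and edgeR, and the build listed is rn6. The annotation was not given in the sources used here. Expected counts were rounded (12% were not whole). Of 17168 rows, 0 lacked a name.

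Genes were tested in R 4.3.3 with limma 3.58.1 and the quasi-likelihood functions of edgeR 4.0.16, using TMM factors, robust fitting and filterByExpr, adjusted by Benjamini-Hochberg over 12355 genes, at 0.05. CPM used TMM-scaled library sizes. SE was the log2 fold change over the root of F. The procedure was tested on simulated data. Groups and replicate numbers came from sample titles, and replicates are separate rats per the design text. No 2 libraries of a group agreed within sampling noise (lowest chi-square per gene 11.3). Whole reads were recovered from the normalized signal (100% of values within 0.01 of whole). The test on them, a setting chosen after seeing the data, called 5817 genes, the same number as the main test. DESeq2 1.42.0 was another alternative.

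All members were named, and of each related list the 4 genes with the smallest p, besides those singled out after their values were seen (Atf4, Eif2ak4, Ddit3 and Slc7a5). Members and lists were chosen with earlier results of these data known. Promoters are RefSeq's on GRCr8, and no rn6 coordinates were used.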

Additional observations from a re-analysis of the deposited data

Results flagged for a closer look

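In 4 of 68 combinations of member and group, 1 rat lay far from the other rats of its group, by a gap of more than 0.71 of the group's range, and chance gives about 1 in 20. Kars was at 91.4 CPM in ibudilast replicate 1, against 106.1 to 109.6 CPM in the other ibudilast rats. Untreated replicate 3 was high for both valyl enzymes, with Vars2 at 33.7 CPM, against 23.4 to 26.4 CPM in the other untreated rats, and Vars at 72.3 CPM, against 64.1 to 66.2 CPM. Cars was at 46.0 CPM in untreated replicate 2, against 52.5 to 55.0 CPM in the other untreated rats.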

How the results depend on the processing

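Of 18 called members, 7 kept their call under all 21 alternatives (Dars, Iars, Qars, Cars2, Sars2, Tars2 and Vars2), and 9 did when any 1 rat was left out, these 7 with Eprs and Farsb. Of 16 members without a call, 11 had none in any alternative. Among the 21, the test on recovered whole reads starts from the same reads and gave the same call for all 34 members, so it is not a separate check. The replicate numbers did not pair the rats: same-numbered rats correlated at −0.328 to 0.416 in their deviations from group means, and 1 of 5 correlated best with its own number. With the replicate block, 1 cytosolic member rose and 3 fell, 0 mitochondrial members fell, and over all genes 2497 rose and 2229 fell, against 3004 and 2813 without it. Cytosolic members that rose numbered 2 with RLE factors, with limma-trend on the authors' values and with no low-count filter. With library size alone 3 cytosolic members fell. The mitochondrial member that fell, Nars2, lost its call with upper-quartile factors, with library size alone and without the 4 libraries set apart by marker genes (ibudilast replicates 1 and 4, untreated replicates 2 and 3), so that 0 fell there. Leaving out 1 rat at a time gave 1 to 7 cytosolic members that rose and 4 to 8 that fell, 5 to 6 mitochondrial members that rose and 0 to 1 that fell, and over all genes 2549 to 3068 that rose and 2461 to 3224 that fell. With library size alone the sign turned for Wars (0.019, adjusted p = 0.859) and Yars2 (0.0019, adjusted p = 0.992). The cause of these shifts was not tested. The mitochondrial median exceeded the cytosolic one by 0.26 to 0.33 in each alternative. Depth limits Ears2 and Nars2 most, with means of 3.26 and 4.11 CPM in ibudilast rats.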
